A study of Homo sapiens with 66 samples.

Results

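The comparison described here set spinal motor neuron cultures at day 18 of differentiation (hMN-D18) against the same kind of culture at day 12 (hMN-D12). It used 6 of the 66 RNA-seq libraries of the series, 3 at each day, chosen by their labels alone. Both groups came from H9, a wild-type human embryonic stem cell line, by way of spinal cord neural progenitor cells (hSCNPCs). These progenitors were dissociated and plated on poly-D-lysine and Matrigel in a DMEM/F12 and Neurobasal medium with N2 and SM1 supplements. All motor neuron groups, the D12 group included, received Purmorphamine, a Hedgehog pathway agonist, Compound E, a γ-secretase inhibitor that blocks Notch signaling, and the neurotrophic factors BDNF, GDNF and NT-3, so the groups differed by culture time and not by an added agent. The model is 1 stem cell line under 1 protocol, whole cultures were sequenced in bulk, and nothing in the labels says whether the 3 libraries of a day were separate cultures, so p-values measure the spread between libraries, which may be technical.

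Spinal motor neurons arise from ventral progenitors that leave the cell cycle, switch off SOX family progenitor factors and pass through a phase of proneural bHLH factor expression before they mature. Maturation is known for the build-up of ion channels, neurotransmitter receptors and synaptic vesicle proteins, while HOX genes record the position of the cells along the spinal cord. Motor neurons release acetylcholine, which is made by CHAT, loaded into vesicles by SLC18A3 and recovered as choline by SLC5A7.

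The cultures changed from day 12 to day 18 in many genes, mostly by small amounts. Among the gene groups described below, more receptor and ion channel genes were higher than lower at day 18, and more neural progenitor, proneural, HOX, mitosis and ribosomal protein genes were lower than higher. Of 21175 genes tested, 2260 were higher at day 18 (10.7%) and 2375 were lower (11.2%) by edgeR's quasi-likelihood test at an adjusted p under 0.05. Among protein-coding genes the shares were 13.9% higher and 13.9% lower. Among the 4635 called genes, 77.5% changed by less than 1.5-fold and the median absolute change was 0.30 on the log2 scale. At least a 2-fold change was found in 267 of the genes called higher and in 146 of those called lower. The median log2 fold change of all tested genes was -0.002. The medians of the gene groups below may be read against it, and their counts against the shares above. All levels are CPM, a gene's read count relative to the TMM-scaled size of its library, and a log2 fold change is day 18 over day 12. The value after ± beside a log2 fold change is a standard error (SE) worked out from edgeR's F statistic. It is the absolute log2 fold change divided by the square root of F.

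**Figure D1:**
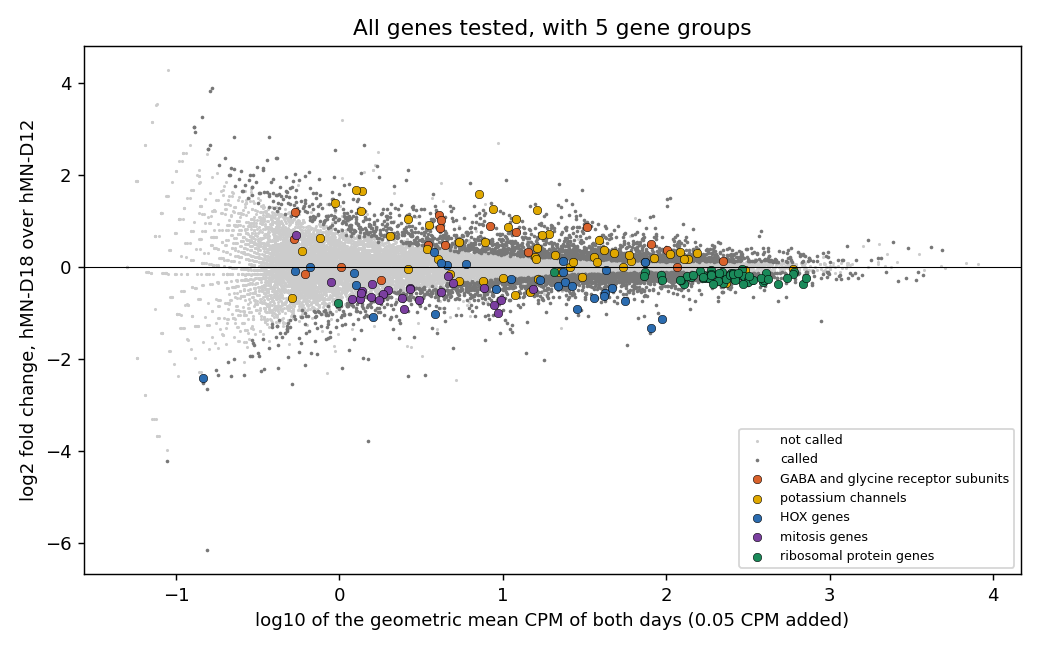
Each point is 1 of the 21175 tested genes, with the log10 geometric mean CPM of both days on the x axis and the log2 fold change of hMN-D18 over hMN-D12 on the y axis. Genes called by edgeR are dark grey and 5 gene groups are colored; the GABA and glycine receptor subunits lie mostly above 0 (median 0.49), the mitosis genes below it (median -0.58) and the ribosomal protein genes in a narrow band at high CPM (median -0.22).

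Libraries of a day were closer to each other than to those of the other day. Total counts ranged from 14142238 to 21387901, and pairs of libraries from 1 day differed by a root mean square of 0.376 to 0.416 on the log2 CPM scale, against 0.463 to 0.506 for pairs from different days. Transcripts encoded by the mitochondrial genome took 3.34% to 4.39% of counts at day 12 and 4.61% to 4.98% at day 18, and ribosomal protein genes took 1.89% to 2.09% and 1.64% to 1.82%. Because whole cultures were sequenced, fewer cells of a type and less RNA per cell cannot be told apart in any result below.

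The largest increases included ion channel, membrane and secreted protein genes. KCNJ2, an inward rectifier potassium channel, was at 1.33, 0.988 and 1.39 CPM in the D12 libraries and at 5.102, 5.05 and 5.695 CPM in the D18 libraries, a log2 change of 2.104 ± 0.18 (adjusted p = 4.34e-13, edgeR). SYT13, an atypical synaptotagmin (chromosome 11, positions 45240302 to 45286341, GRCh38), went from 60.2, 59.4 and 61.2 CPM to 165, 170.3 and 170.0 CPM, a change of 1.48 ± 0.043 with the smallest adjusted p among the genes named here (1.21e-30). The rule that picked these genes admits no overlap between the days, as held for 2140 of the 2260 genes called higher. PTCHD1, a patched-domain membrane protein, read 60.95, 60.7 and 67.7 CPM at day 12 and 166, 185 and 183 CPM at day 18 (1.49 ± 0.049). The other genes named from the 12 with the largest increases rose by 1.35 to 1.89. They were RASGRF1, a calcium-responsive Ras exchange factor, the receptor tyrosine phosphatase PTPRT, the heparan sulfate sulfotransferase HS3ST5, the Kv4 channel-interacting protein KCNIP4, the secreted protein FSTL5, the adhesion G protein-coupled receptor ADGRG2, the neurexin ligand CA10, and NWD2. Exons of other genes cover 46.3% of the exonic length of KCNIP4 and 11.6% of that of FSTL5. Their counts may have gained or lost reads in the shared stretches, which was not tested.

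The largest decreases included transcription factors of progenitors and newborn neurons. SOX3, a SOXB1 factor of neural progenitors (chromosome X, positions 140502985 to 140505069), fell from 36.7, 37.9 and 33.9 CPM to 8.57, 8.302 and 9.65 CPM (-2.03 ± 0.075, adjusted p = 1.82e-26, edgeR). DBX1, a homeobox factor of progenitors dorsal to the motor neuron domain, dropped from 111, 103 and 97.6 CPM to 29.2, 33.95 and 32.2 CPM (-1.70 ± 0.057). The rule that picked both genes admits no overlap between the days, as held for 2235 of the 2375 genes called lower. ARRDC3, an arrestin domain protein, changed in the same direction, from 137, 132 and 121 CPM to 50.05, 46.1 and 48.1 CPM (-1.43 ± 0.054). The other decreases named from the 12 largest were in the forkhead factor FOXB1 (-1.76), the secreted factor NDNF (-1.59), the Myt1 family zinc finger gene ST18 (-1.43), SEC14L5 (-1.36), HOXB9 (-1.33), the histone genes H2BC8 (-1.44) and H2AC6 (-1.41), and ENSG00000280229 (-2.36), a transcript of unconfirmed type. Histone genes have near-identical copies, so the split of reads among them is uncertain.

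**Figure D2:**
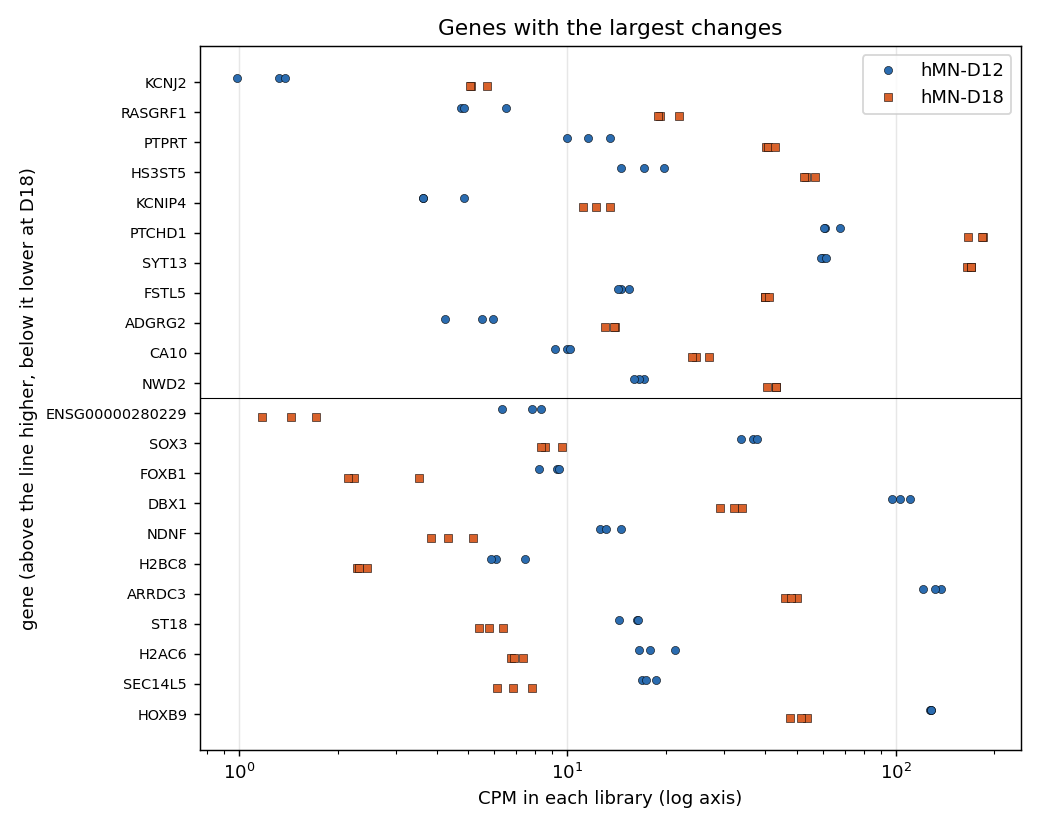
CPM of each library on a log axis for the genes named among the 12 with the largest increases (upper rows) and the 12 with the largest decreases (lower rows), with blue circles for the 3 hMN-D12 libraries and orange squares for the 3 hMN-D18 libraries. The naming rule admitted only genes whose 2 sets of points do not overlap, so their separation is not a result. The points lie from 0.99 to 1.39 CPM against 5.05 to 5.70 CPM in KCNJ2 and from 127 to 129 CPM against 47.6 to 53.8 CPM in HOXB9.

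Several motor neuron markers were detected but did not pass the test between the days, some of them at levels where a missed call says little. The vesicular acetylcholine transporter SLC18A3 read 36.5, 36.5 and 36.7 CPM at day 12 and 38.5 ± 1.71 CPM (mean ± SD, n = 3) at day 18, and its change of 0.074 ± 0.059 did not pass the test (adjusted p = 0.418, edgeR). The motor neuron homeobox factor MNX1 was at only 2.94, 3.06 and 3.23 CPM and 2.86, 3.15 and 2.82 CPM (-0.066 ± 0.18, adjusted p = 0.846). ISL1, a LIM factor of postmitotic motor neurons that sensory and other neurons also use, stood at 10.2, 10.4 and 10.6 CPM and 11.2, 11.4 and 9.95 CPM (0.057 ± 0.10). In each of them the libraries of the 2 days overlapped. CHAT, which makes acetylcholine, gave 2.33 ± 0.312 CPM and 2.97 ± 0.719 CPM (mean ± SD, n = 3 each; 0.36 ± 0.20, adjusted p = 0.199), a low level that limits what the test can find. The choline transporter SLC5A7, picked here after its values were seen, read 66.7 ± 3.01 CPM and 62.8 ± 1.91 CPM (-0.090 ± 0.048, adjusted p = 0.195).

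Other motor neuron transcription factors moved in both directions. Of 29 tested, 5 were higher and 12 were lower, with a median log2 fold change of -0.13. LHX3, the LIM factor that with ISL1 specifies newborn motor neurons, was near 2.096 CPM at day 12 and 0.988 CPM at day 18 (-1.07 ± 0.22, adjusted p = 0.000188, edgeR). TSHZ1 (-0.94 ± 0.072) and the nuclear receptor ESRRG (-0.71 ± 0.048), a factor of gamma motor neurons, were also lower. Among those that rose, FOXP2 went from 14.6, 14.8 and 16.3 CPM to 23.6, 21.8 and 21.6 CPM (0.55 ± 0.076), the onecut factor ONECUT3 from 648 ± 29.8 CPM to 766 ± 21.8 CPM (0.24 ± 0.040), and ETV4 by 0.25 ± 0.062. ISL2 was called at an adjusted p of 0.0488, and the call was lost without any one of the D12 libraries or without D18 replicate 1 or 2. The number called higher was 3 without D12 replicate 1 and also without D12 replicate 3. EBF3 (-0.046) and ONECUT1 (-0.30) did not pass the test.

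Receptors for acetylcholine were among the cholinergic genes that changed. In the cholinergic group 5 of 18 tested genes were higher and 1 was lower, with a median of 0.15. The muscarinic receptor CHRM2 rose from 7.14, 7.07 and 10.6 CPM to 18.01, 16.7 and 18.1 CPM (1.07 ± 0.13, adjusted p = 4.28e-07, edgeR), CHRM4 from 1.15 ± 0.12 CPM to 2.38 ± 0.744 CPM, and CHRM3 from 11.3 ± 1.22 CPM to 17.2 ± 0.832 CPM. The nicotinic subunit CHRNA5 fell from 9.02 ± 0.324 CPM to 5.44 ± 0.304 CPM (-0.73 ± 0.12), and exons of other genes cover 28.4% of it. Acetylcholinesterase, ACHE (0.058), and the nicotinic subunit CHRNB2 (0.053) did not pass the test. Of 15 genes of neuromuscular organizers and motor neuron peptides, 4 were higher and 4 lower: urotensin UTS2 (0.80 ± 0.10, 48.4% covered by exons of other genes) rose most, and AGRN, the agrin that clusters acetylcholine receptors in muscle, fell from 523 ± 11.4 CPM to 438 ± 18.2 CPM (-0.26 ± 0.045). Both counts became 2 without D12 replicate 3.

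More receptor subunits for GABA, glycine and glutamate were higher than lower. Of 18 GABA and glycine receptor subunits tested, 13 were higher and none was lower, and the median was 0.49. That share may be read against the 10.7% of all genes and the 13.9% of protein-coding genes. GABRB1, a GABA-A β subunit, was at 2.59, 2.77 and 2.77 CPM at day 12 and at 6.07, 5.71 and 6.11 CPM at day 18 (1.13 ± 0.14, adjusted p = 1.57e-08, edgeR). The glycine receptor subunit GLRA3 rose from 2.91 ± 0.814 CPM to 5.91 ± 0.411 CPM and the GABA-A subunit GABRA5 from 6.05 ± 0.174 CPM to 11.2 ± 1.07 CPM. All D18 libraries exceeded all D12 libraries in GABRB1. Among 25 glutamate receptor subunits, 15 rose and 3 fell (median 0.25). GRIN2B, an NMDA receptor subunit prominent in young neurons, went from 58.01, 66.8 and 66.3 CPM to 142, 167 and 174 CPM (1.33 ± 0.072, adjusted p = 2.71e-12, edgeR). The NMDA subunits GRIN3A (1.03 ± 0.070) and GRIN2C (1.26 ± 0.21) rose as well, whereas the metabotropic receptor GRM2 (-0.44 ± 0.052) and the kainate subunit GRIK1 (-0.26 ± 0.054) fell. GRIN3B was called lower at an adjusted p of 0.0296 and lost the call without D12 replicate 2 or 3 or D18 replicate 1 or 2. GRIA4 (-0.060) and GRIK5 (-0.027) did not pass.

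Voltage-gated channels also had more members higher than lower. In total 7 of 13 sodium channel genes were higher and none was lower (median 0.28), led by SCN1A, at 12.5, 14.1 and 16.3 CPM and then 27.7, 26.2 and 27.6 CPM (0.91 ± 0.076, adjusted p = 1.12e-13, edgeR), the auxiliary subunit SCN4B (0.81 ± 0.19) and the leak channel NALCN (0.74 ± 0.068). Of 22 calcium channel genes 12 rose and 1 fell (median 0.23): the P/Q-type subunit CACNA1A went from 33.9, 30.2 and 37.2 CPM to 51.3, 53.7 and 53.4 CPM (0.65 ± 0.057), and CACNG2, an AMPA receptor auxiliary subunit (31.6% covered by exons of other genes), from 5.02 ± 0.852 CPM to 10.4 ± 0.014 CPM. The T-type subunit CACNA1H fell from a mean of 276 CPM to 239 CPM (-0.20 ± 0.048). Among 55 potassium channel genes 29 rose and 5 fell (median 0.25). KCNA1, a Kv1 channel of axons, was at 0.4898, 0.741 and 0.975 CPM and 2.35, 2.41 and 2.41 CPM (1.65 ± 0.24), and KCNQ1 at 0.677 ± 0.119 CPM and 2.15 ± 0.384 CPM. KCNH1 (-0.61 ± 0.10, 46.8% of its exonic length covered by other genes), the Kv4 channel KCND1 (-0.56 ± 0.086) and the large-conductance calcium-activated channel KCNMA1 (-0.35 ± 0.042) fell, while KCNH2 (-0.072) did not pass the test.

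Synaptic genes were more often called higher than lower, and SYT1 was an exception. In all, 20 of 33 synaptic vesicle and release genes were higher and 4 were lower (median 0.22). Beside SYT13, the vesicle-associated protein SYN2 rose from 21.3, 21.4 and 22.4 CPM to 36.1, 37.6 and 38.5 CPM (0.78 ± 0.062, adjusted p = 1.74e-14, edgeR), the priming factor UNC13C by 0.66 ± 0.14, and synaptophysin, SYP, from 394 ± 28.4 CPM to 461 ± 10.1 CPM (0.23 ± 0.054). SYT1, the main calcium sensor of fast release, went the other way, from 605, 625 and 635 CPM to 372, 372 and 376 CPM (-0.74 ± 0.038, adjusted p = 3.36e-21). The complexin gene CPLX1 (-0.16) and SV2C (-0.18) fell less, and the number lower was 2 without D12 replicate 3. Of 29 postsynaptic scaffold and adhesion genes, 15 rose and 2 fell (median 0.18): CAMK2A, a kinase of the postsynaptic density, rose from 26.00 ± 1.01 CPM to 40.2 ± 3.38 CPM and LRRTM1 from 15.3 ± 0.827 CPM to 24.3 ± 1.61 CPM, while LRRTM2 (-0.29) and LRRTM4 (-0.26) fell. The PSD-95 gene DLG4 read 416 ± 23.4 CPM and 442 ± 14.1 CPM (0.089 ± 0.042, adjusted p = 0.129).

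**Figure D3:**
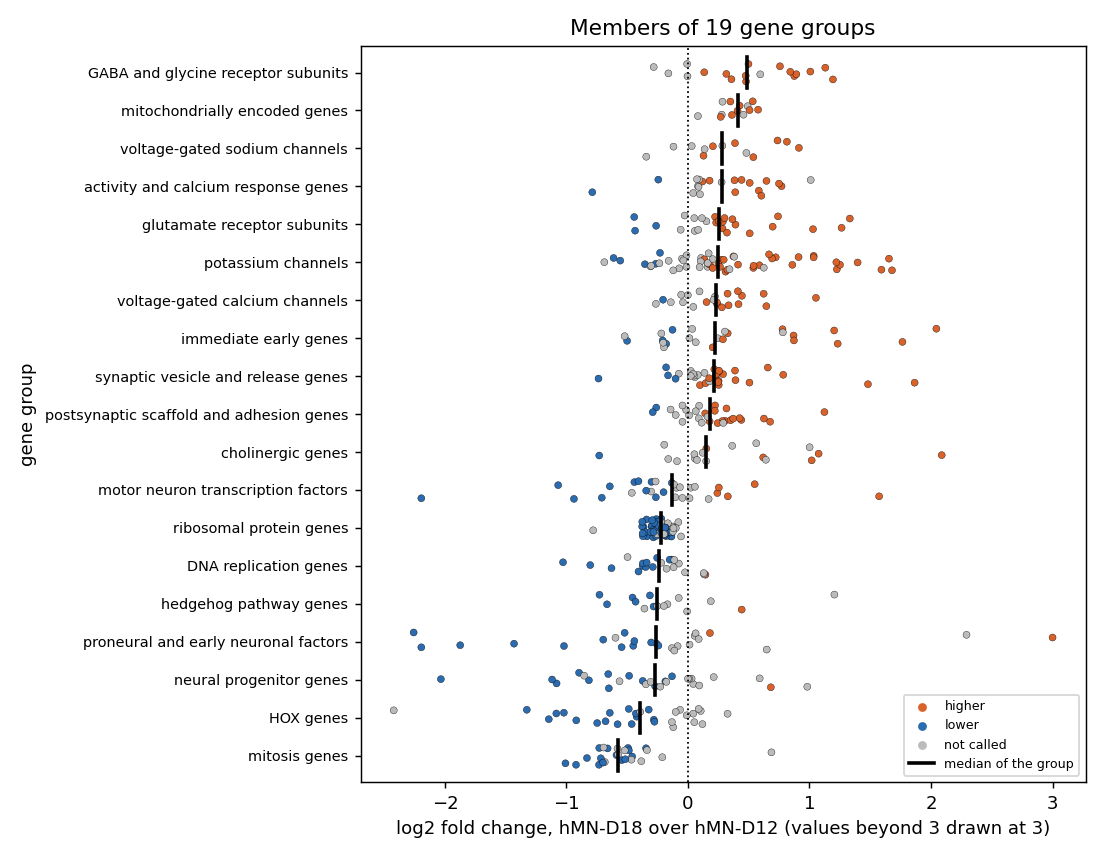
Log2 fold change of hMN-D18 over hMN-D12 for every tested member of 19 gene groups, 1 point per gene, orange if called higher, blue if called lower and grey if not called; the black bar is the median of the group, the dotted line the median of all tested genes (-0.002), and vertical scatter within a row has no meaning. Receptor and channel groups have medians from 0.23 to 0.49, and the HOX and mitosis groups have medians of -0.39 and -0.58.

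General neuronal markers moved both ways. Among 25 neuronal cytoskeleton and marker genes 8 rose and 5 fell (median 0.02). The heavy neurofilament NEFH read 17.4, 17.3 and 16.9 CPM at day 12 and 22.04, 25.8 and 25.4 CPM at day 18 (0.51 ± 0.071, adjusted p = 2.01e-07, edgeR), and the neuronal nuclear protein RBFOX3 (NeuN) read 95.9, 83.5 and 85.5 CPM and 111, 114 and 111 CPM (0.35 ± 0.049). The microtubule protein MAP1A rose from 294 ± 12.9 CPM to 468 ± 26.2 CPM (0.67 ± 0.053). MAP2 was called at an adjusted p of 0.0154 (0.14 ± 0.044) and lost the call without D12 replicate 1 or 2 or D18 replicate 2 or 3. TUBB3 (-0.11, adjusted p = 0.379, 21.3% covered by exons of other genes) and TUBA1A (0.011) did not pass, and STMN1 (-0.22 ± 0.052), a microtubule-destabilizing protein of growing neurons, fell. The number lower was 3 without D12 replicate 1, without D12 replicate 2 and without D18 replicate 2.

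Transmitter genes of other neuron classes were also present. Of 18 tested transmitter and chloride transporter genes 7 were higher and 1 lower (median 0.40). GAD1, which makes GABA, rose from 19.5, 21.1 and 21.4 CPM to 29.3, 29.5 and 30.2 CPM (0.52 ± 0.067, adjusted p = 3.4e-08, edgeR), and the vesicular glutamate transporter SLC17A6 from 0.5598, 0.939 and 0.719 CPM to 2.25, 2.32 and 1.74 CPM (1.47 ± 0.25). TH, of catecholamine synthesis, went from 2.703 ± 0.43 CPM to 4.39 ± 0.161 CPM. The decrease of DBH had an adjusted p of 0.0395 and was lost without any one of the 6 libraries. Among 24 interneuron transcription factors 4 were higher and 6 lower (median -0.06). GATA3, of V2b interneurons, was at 0.4898, 1.04 and 0.975 CPM and 3.01, 2.18 and 4.98 CPM (1.95 ± 0.48, adjusted p = 0.00788), and GATA2 at 2.73, 1.98 and 1.69 CPM and 5.36, 4.31 and 9.34 CPM (1.59 ± 0.39); in both, D18 replicate 3 was the highest library. SOX21 (-0.45 ± 0.049) and PRDM8 (-0.54 ± 0.080) fell. Of 24 neuropeptide and granin genes 6 rose and 2 fell: the granin SCG2 rose from 291 ± 3.25 CPM to 496 ± 17.6 CPM, and somatostatin, SST, fell from 17.4, 18.8 and 16.8 CPM to 7.14, 7.699 and 7.18 CPM (-1.26 ± 0.10).

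Some of the genes that neurons induce on calcium entry and depolarization were higher. Of 24 immediate early genes 10 were higher and 4 lower (median 0.23). FOSB, an AP-1 subunit, was at 0.7697, 0.593 and 0.565 CPM at day 12 and 2.704, 2.64 and 2.51 CPM at day 18 (2.04 ± 0.25, adjusted p = 5.05e-09, edgeR), and NPAS4, a neuron-specific activity-regulated factor, was at 0.8397, 1.53 and 0.975 CPM and 4.34, 2.92 and 4.46 CPM (1.76 ± 0.22). FOSL2 rose from 4.86 ± 0.516 CPM to 11.6 ± 0.903 CPM. EGR1 (-0.50 ± 0.092) and JUN (-0.18 ± 0.050) fell instead; the call of JUN was lost without D18 replicate 3, and the number lower was 2 without D12 replicate 1 and also without D18 replicate 3. DUSP1 (0.035) and BTG2 (0.012) did not pass. In a group of 21 activity and calcium response genes 11 rose and 2 fell (median 0.28), among them GADD45B (0.75 ± 0.18) and NRN1 (0.65 ± 0.095), with RGS4, a regulator of G protein signaling, lower (-0.79 ± 0.049).

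The promoters of the most changed immediate early genes are shown because CREB, a factor that acts on such genes, reads the short site TGACG. In RefSeq windows from 250 bases before to 50 after the start (GRCh38.p14), TGACG on either strand was found in 14 of 19 immediate early genes (73.7%) and in 4302 of 13190 tested genes with a window (32.6%); the full site TGACGTCA, which contains the short one, was found in 2 (10.5%) and 406 (3.08%), and the AP-1 site TGANTCA in 1 (5.26%) and 638 (4.84%). The 250 bases before the start follow, 5′ to 3′, with TGACG or its reverse complement in capitals: for FOSB, chr19:45467746-45467995 on the plus strand, and for NPAS4, chr11:66420754-66421003 on the plus strand.
FOSB: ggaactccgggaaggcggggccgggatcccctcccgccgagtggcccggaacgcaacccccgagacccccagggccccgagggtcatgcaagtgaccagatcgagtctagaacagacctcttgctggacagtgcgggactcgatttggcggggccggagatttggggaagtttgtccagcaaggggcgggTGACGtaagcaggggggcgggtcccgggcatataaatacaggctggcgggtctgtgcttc
NPAS4: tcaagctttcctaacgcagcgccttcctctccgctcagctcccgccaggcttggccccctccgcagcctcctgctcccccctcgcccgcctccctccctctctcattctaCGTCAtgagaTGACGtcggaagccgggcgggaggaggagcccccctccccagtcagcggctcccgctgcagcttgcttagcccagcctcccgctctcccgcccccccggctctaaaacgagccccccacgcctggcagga
The windows of EGR1, JUN, JUND and IER2, which fell, also hold TGACG, and those of NR4A1 and KLF6, which rose, do not. JUND, IER2, NR4A1 and KLF6 were looked up after their values were seen. A match of letters is a description and not a binding site.

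Progenitor and proneural genes were more often called lower than higher. Of 27 neural progenitor genes tested, 12 were lower and 1 was higher (median -0.27), where 11.2% of all genes and 13.9% of protein-coding genes were lower. SOX2, which maintains neural progenitors, fell from 99.6, 95.9 and 102 CPM to 47.9, 44.7 and 44.5 CPM (-1.12 ± 0.052, adjusted p = 5.47e-23, edgeR), and the intermediate filament NES from 651, 731 and 649.5 CPM to 424, 434 and 436 CPM (-0.65 ± 0.045). PAX6, 26.3% of which other genes' exons cover, went from 8.47 ± 0.564 CPM to 4.52 ± 0.107 CPM (-0.90 ± 0.10). In each of these genes the lowest D12 library was above the highest D18 library. The glial glutamate transporter SLC1A3 was the member that rose, from 2.56 ± 0.547 CPM to 4.14 ± 0.535 CPM, and VIM (-0.35, 24.6% covered by exons of other genes) and PTPRZ1 (-0.18) did not pass. A total of 13 of 25 proneural and early neuronal factors were lower and 2 were higher (median -0.26), none higher without D12 replicate 1 or without D18 replicate 3: INSM1, a factor of newborn neurons, fell from 58.4, 65.4 and 59.2 CPM to 29.9, 29.03 and 31.6 CPM (-1.02 ± 0.056). In the ventral progenitor group only DBX1 fell and only SHH rose among 18 tested; SHH was at 2.49 ± 0.4 CPM and 4.42 ± 1.45 CPM, and its call was lost without D12 replicate 1 or 2 or D18 replicate 1. The numbers higher and lower were both 2 without D18 replicate 2. NKX6-1 read 70.1 ± 3.27 CPM and 67.8 ± 3.39 CPM (-0.045), OLIG2 read 2.92 ± 1.8 CPM and 2.16 ± 1.01 CPM (-0.46), and NKX2-2, 43.9% covered by exons of other genes, read 0.719 ± 0.113 CPM and 1.46 ± 1.05 CPM (0.99), none of them past the test.

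Genes that mark developmental time moved in both directions. In this group 12 of 29 tested genes were lower and 4 higher (median -0.04). The let-7 antagonist LIN28A fell from 106, 108 and 102 CPM to 51.7, 49.02 and 49.1 CPM (-1.08 ± 0.045, adjusted p = 8.39e-25, edgeR), and the chromatin organizer SATB1 from 66.98 ± 3.03 CPM to 44.3 ± 3.5 CPM. The late factors NFIX, NFIA and NFIB, of the nuclear factor I family, were low and rose: NFIX read 0.7697, 0.939 and 0.975 CPM and 2.81, 1.76 and 2.56 CPM (1.38 ± 0.38, adjusted p = 0.0137), NFIA rose by 0.89 ± 0.24 and NFIB by 0.88 ± 0.24. The call of NFIX was lost without D12 replicate 1 or 2 or D18 replicate 1 and that of NFIB without D12 replicate 2. The number higher was 2 without D12 replicate 2, and the number lower was 7 without D12 replicate 3. MEIS2 (-0.028) did not pass.

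Many HOX genes were lower at day 18, in different shares of the 4 clusters. Of 29 HOX genes tested 16 were lower and none was higher (median -0.39). HOXB9 (chromosome 17, positions 48621156 to 48626358) fell from 127, 128 and 129 CPM to 53.8, 51.6 and 47.6 CPM (-1.33 ± 0.051, adjusted p = 5.56e-26, edgeR), and HOXB8 from 139.9, 139 and 139 CPM to 64.3, 62.3 and 62.3 CPM (-1.15 ± 0.052). HOXB9 was picked by a rule that admits no overlap between the days, and the days did not overlap in HOXB8 either. In the HOXB cluster 8 of 9 genes were lower, and their summed level was 511.3 to 519.8 CPM at day 12 and 263.8 to 281.4 CPM at day 18. In the HOXC cluster 2 of 6 tested genes were lower and the sum was 146.2 to 154.7 CPM and then 144.8 to 148.5 CPM. HOXC9, a thoracic marker, read 75.4, 68.2 and 71.8 CPM and 80.4, 75.2 and 75.6 CPM (0.10 ± 0.048, adjusted p = 0.118), while HOXC6, of brachial level, fell from 25.2 ± 0.562 CPM to 18.7 ± 1.35 CPM (-0.43 ± 0.068). The HOXA sum went from 146.0 to 159.2 CPM to 109.6 to 112.3 CPM with 5 of 9 genes lower, and 1 of 5 HOXD genes was lower. HOXB4 fell from 5.38 ± 0.847 CPM to 2.64 ± 0.547 CPM, HOXA4 from 2.26 ± 0.141 CPM to 1.06 ± 0.288 CPM, and the lumbar gene HOXD10, looked up after its values were seen, was under 1 CPM in all but 1 of the 6 libraries. HOX genes of a cluster overlap, and exons of other genes cover 47.8% of HOXA4, 16.1% of HOXC6 and 9.8% of HOXC9. The difference between clusters was not tested.

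**Figure D4:**
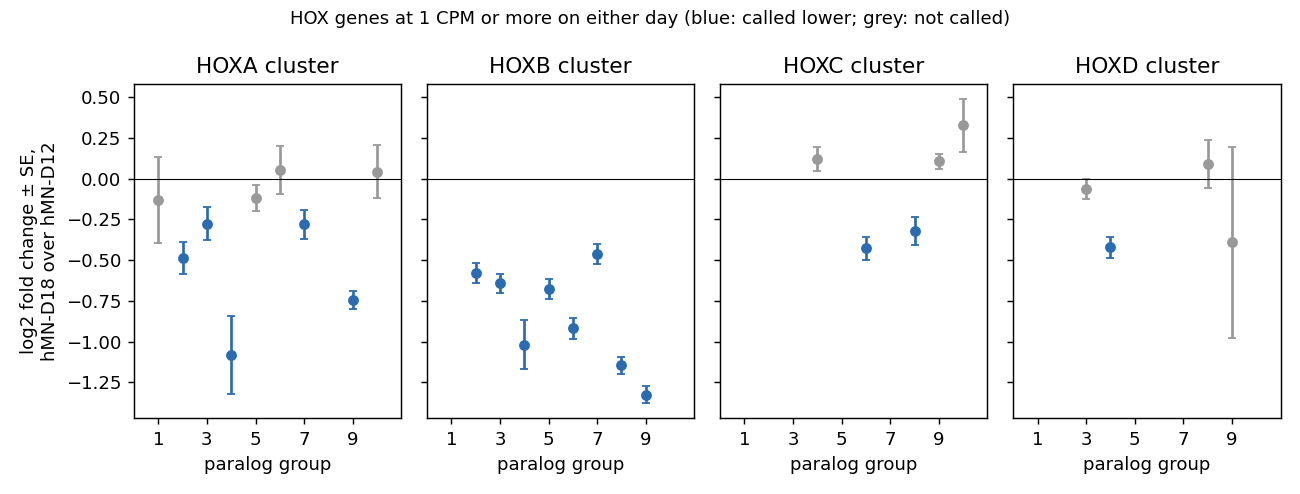
Log2 fold change ± SE of hMN-D18 over hMN-D12 for HOX genes at 1 CPM or more on either day, by cluster and paralog group. The SE was worked out from edgeR's F statistic. Genes called lower are blue and those not called are grey. All 8 HOXB genes shown lie below 0, from -0.46 to -1.33, while HOXC4, HOXC9 and HOXC10, among others, lie above 0 without passing the test.

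Mitosis genes were low at day 12, and many of them were lower at day 18. Of 25 mitosis genes 15 were lower and none was higher (median -0.58), and their summed level was 97.4 to 124.9 CPM at day 12 and 70.08 to 85.21 CPM at day 18. CENPF, a kinetochore protein, was at 10.6, 14.9 and 13.6 CPM and 6.79, 5.75 and 7.23 CPM (-1.01 ± 0.16, adjusted p = 9.47e-05, edgeR), TOP2A, the topoisomerase of dividing cells, at 8.61, 13.3 and 12.8 CPM and 6.94, 5.94 and 7.08 CPM (-0.83 ± 0.20), and the survivin gene BIRC5 at 2.799, 3.41 and 3.69 CPM and 1.38, 1.48 and 2.46 CPM. In these genes the days did not overlap, with D12 replicate 1 the lowest of its day. MKI67 overlapped between days, at 9.94, 11.2 and 16.2 CPM and 7.63 ± 2.08 CPM (mean ± SD, n = 3), with D18 replicate 3 above D12 replicate 1 (-0.73 ± 0.24, adjusted p = 0.0385). The count of mitosis genes rested in part on 1 library: it was 7 without D12 replicate 2 and 9 when the 6 libraries were fitted alone, and the call of MKI67 was lost in both. Of 22 DNA replication genes 12 were lower and 1 higher (median -0.24), among them the helicase cofactor CDC45 (-1.03 ± 0.31), whose call was lost without D12 replicate 2 or D18 replicate 2, the ribonucleotide reductase subunit RRM2 (-0.80 ± 0.18) and UHRF1 (-0.63 ± 0.12), and 7 were lower without D12 replicate 2. None was higher without D12 replicate 1 or 3 or D18 replicate 1 or 2. Among 20 cyclin and CDK inhibitor genes 5 were lower and 2 higher: CCND1 fell from 442 ± 15.1 CPM to 340.2 ± 16.1 CPM (-0.38 ± 0.043), and CDK5R2, an activator of the neuronal kinase CDK5, rose from 57.97 ± 2.84 CPM to 79.9 ± 1.03 CPM. Without D12 replicate 2 the number lower was 3.

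The promoters of CENPF and TOP2A are shown because mitosis genes are known to share 2 elements, the CCAAT box read by NF-Y and the cell cycle homology region TTTGAA. Over the same windows, CCAAT on either strand was found in 18 of 20 mitosis genes (90.0%) and in 4742 of 13190 tested genes (36.0%), and TTTGAA in 14 of 20 (70.0%) and 1357 (10.3%). DNA replication genes held CCAAT in 15 of 19 windows (78.9%) and TTTGAA in 1 (5.26%). CCAAT was not particular to cell cycle genes. It was found in 13 of 14 HOX windows (92.9%) and 13 of 20 proneural and early neuronal windows (65.0%). Only 14 of the 29 tested HOX genes had a window, and none of the 8 HOXB genes called lower was among them. Among ribosomal protein genes it was in 17 of 46 windows (37.0%). The 250 bases before the start are given 5′ to 3′ with matches to either motif, on either strand, in capitals: CENPF, chr1:214602945-214603194 on the plus strand, and TOP2A, chr17:40417897-40418146 on the minus strand. The bases shown hold 3 CCAAT and no TTTGAA matches in CENPF, whose 1 TTTGAA match lies in the 50 bases after the start, and 4 CCAAT and 2 TTTGAA matches in TOP2A.
CENPF: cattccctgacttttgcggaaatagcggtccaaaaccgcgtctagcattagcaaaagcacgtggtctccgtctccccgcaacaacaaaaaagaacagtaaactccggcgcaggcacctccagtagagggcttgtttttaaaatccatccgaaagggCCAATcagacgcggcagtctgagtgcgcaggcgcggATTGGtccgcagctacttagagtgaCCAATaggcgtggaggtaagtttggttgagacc
TOP2A: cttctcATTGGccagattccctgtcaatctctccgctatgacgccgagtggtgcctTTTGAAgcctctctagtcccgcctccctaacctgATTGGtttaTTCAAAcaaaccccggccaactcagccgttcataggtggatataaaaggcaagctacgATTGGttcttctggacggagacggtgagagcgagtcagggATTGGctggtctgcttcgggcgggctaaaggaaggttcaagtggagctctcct
CDK1 and CDC20, looked up after their values were seen, were not called and hold both motifs in their windows too.

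Genes of pathways addressed by the medium were called in both directions, and the activity of the pathways was not tested. The counts may be read against the 10.7% of all genes called higher and the 11.2% called lower. Among protein-coding genes these shares were 13.9% and 13.9%. Of 15 Hedgehog pathway genes 6 were lower and 1 higher (median -0.25). The receptor PTCH1, itself a target of the pathway, fell from 102, 109.7 and 113 CPM to 74.9, 85.2 and 76.4 CPM (-0.46 ± 0.064, adjusted p = 3.67e-06, edgeR), and the co-receptors BOC (-0.73 ± 0.089) and GAS1 (-0.67 ± 0.13) fell too. Of 21 Notch pathway genes 5 were lower and 3 higher, with a median of -0.03. The ligands JAG1 (-0.68 ± 0.089) and DLL3 (-0.66 ± 0.052) fell, and JAG2 (0.19 ± 0.048) rose. HES6 (0.063) did not pass. Among 19 neurotrophin and GDNF family ligands and receptors, 7 rose and 4 fell. BDNF rose from 8.16 ± 0.184 CPM to 12.2 ± 0.603 CPM and the GDNF family co-receptor GFRA2 from 90.2 ± 5.49 CPM to 136 ± 2.99 CPM (0.59 ± 0.045), while NTF3, the gene of NT-3, fell from 3.99, 3.61 and 4.003 CPM to 1.43, 1.39 and 1.13 CPM (-1.54 ± 0.16). GFRA1 (-0.049) did not pass. The guidance genes split evenly, with 9 of 41 higher and 12 lower: SEMA3E rose from 11.8 ± 0.888 CPM to 21.1 ± 0.481 CPM (0.85 ± 0.080) and SEMA3D fell from 13.8 ± 0.519 CPM to 10.2 ± 0.729 CPM (-0.44 ± 0.10), and 5 were higher without D18 replicate 3.

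Most ribosomal protein genes fell by small amounts. All 57 tested had a log2 fold change below 0, and 42 passed the test (median -0.22). RPL13 fell from 564, 569.7 and 514 CPM to 444, 419 and 406 CPM (-0.38 ± 0.047, adjusted p = 1.93e-08, edgeR), and RPS6 from 219 ± 13.00 CPM to 168 ± 12.7 CPM. These genes have many processed pseudogenes, which can share their reads. The number lower ranged from 29 to 47 when 1 library was left out, with 29 without D18 replicate 3. The 13 protein-coding genes of the mitochondrial genome were all above 0, and 8 passed (median 0.41). Their summed level was 34360, 24080 and 31950 CPM in the D12 libraries and 38680, 38960 and 36540 CPM in the D18 libraries, so D12 replicate 2 was far below the others. Without that library 1 gene was called, and also when the 6 libraries were fitted alone. Without D12 replicate 1 all but 1 were called (12), and 4, 3 and 5 were called without D18 replicate 1, 2 and 3. Of 43 nuclear genes of the respiratory chain 2 were higher and 3 lower (median -0.03). Without D12 replicate 1 these were 1 and 1. The number lower was 6 without D12 replicate 3 or D18 replicate 1, and 1 without D18 replicate 3.

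Stress and metabolic genes moved both ways. Their counts may be read against the 10.7% of all genes called higher and the 11.2% called lower. Among protein-coding genes the shares were 13.9% and 13.9%, and a count near them is not a result about a group. Of 28 unfolded protein and integrated stress response genes 13 were higher and 2 lower (median 0.13): TRIB3 rose from 13.8, 12.6 and 12.2 CPM to 20.2, 20.8 and 19.6 CPM (0.66 ± 0.079, adjusted p = 4.03e-09, edgeR) and the glutathione-degrading enzyme CHAC1 from 19.9 ± 0.598 CPM to 30.7 ± 2.62 CPM, while the disulfide isomerase PDIA6 was lower (-0.22 ± 0.045, 25.2% covered by exons of other genes), and 1 was lower without D12 replicate 2 and also without D18 replicate 3. In the heat shock group 5 of 18 were lower and 1 higher (median -0.05), with the chaperone gene HSPH1 at -0.24; without D12 replicate 1 the number lower was 3, and without D12 replicate 2 or D18 replicate 3 it was 2. The number higher was 0 without D12 replicate 3 or D18 replicate 1 or 2, and 2 without D18 replicate 3. Of 24 cholesterol synthesis genes 7 were higher and none lower (median 0.05), the largest change being that of IDI1 (0.30 ± 0.051), and 1 was lower without D12 replicate 3. In 29 glycolysis and hypoxia genes 6 were higher and 3 lower: the brain aldolase ALDOC rose from 9.33 ± 0.393 CPM to 18.4 ± 1.17 CPM (0.98 ± 0.087) and the secreted peptide ADM fell from 1.71 ± 0.401 CPM to 0.884 ± 0.278 CPM. Of 25 p53 and apoptosis genes 2 were higher and 5 lower, BAX among the latter (-0.31 ± 0.058), and 1 was higher without D12 replicate 3. The 4 remaining groups are given as counts only, to be read against the same shares. Of 26 axonal transport genes 8 were higher and 4 lower (2 lower without D12 replicate 2 or D18 replicate 1), of 24 neuronal splicing regulators 5 and 5, of 18 imprinted genes 3 and 4, and of 29 amyotrophic lateral sclerosis genes 5 and 7 (4 lower without D12 replicate 2).

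Markers of other cell types were called in both directions, where 10.7% of all genes were higher and 11.2% lower. The summed level of 15 tested astrocyte markers was 520.2 to 546.4 CPM at day 12 and 515.8 to 533.7 CPM at day 18. Of these markers 3 were higher and 2 lower, and the median was 0.18, with 11 above 0 and 3 below. The sums of the 2 days overlapped. AQP4 was low, at 1.47 ± 0.512 CPM and 2.97 ± 0.555 CPM, and GJB6 had no count in the 6 libraries. Oligodendrocyte lineage markers summed to 144.2 to 149.8 CPM and 157.6 to 165.4 CPM, with 2 of 11 higher and 1 lower (2 lower without D18 replicate 2), and the myelin genes MOG and MAG had no count. Mesenchymal markers summed to 880.1 to 938.9 CPM and 773.3 to 841.8 CPM, with 2 of 21 higher and 1 lower. COL6A1 fell (-0.36 ± 0.040), but the median of the group was 0.07, with 11 members above 0 and 10 below. In these 2 groups the summed levels of the days did not overlap, but a sum rests most on its most abundant members. Neural crest and sensory markers summed to 65.28 to 73.53 CPM and 71.79 to 80.3 CPM, with 1 of 18 higher and 2 lower. Without D18 replicate 1 these were 2 and 1, and without D12 replicate 3 the number lower was 1. Enough counts for a test were found in 1 of 12 microglia and blood markers, 8 of 17 muscle markers and 6 of 17 forebrain and midbrain markers, and none of these was called; 1 muscle marker was higher without D18 replicate 3 and 1 forebrain and midbrain marker without D18 replicate 1. FLT1 was the only endothelial marker called of 7 tested, at 0.132 ± 0.0783 CPM and 0.675 ± 0.0558 CPM, and 2 were called without D12 replicate 2. None of 9 ependymal and choroid markers was called. Of 7 pluripotency markers tested 1 was higher and 2 were lower, and their sum, which includes LIN28A, was 191.0 to 194.2 CPM and 116.4 to 123.0 CPM. The pluripotency factors POU5F1 and NANOG had at most 2 counts in any of the 6 libraries. The part of other cells in the results above was not tested.

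The step from day 12 to day 18 held fewer called genes than the steps before and after it. By the same model 5048 genes were higher and 4829 lower from day 6 to day 12, and 2943 and 2780 from day 18 to day 24. These steps share libraries with the one described, so their values are given side by side only. SOX3 had been at 411 CPM at day 6, and was at 5.67 CPM at day 24 after 36.2 CPM and 8.84 CPM at days 12 and 18. HOXB9 was at 474, 128, 50.99 and 37.4 CPM on the same 4 days. SYT13 continued upward, at 11.2, 60.3, 168 and 258 CPM. ARRDC3 had no steady direction, at 64.9, 129.9, 48.1 and 79.9 CPM, so day 12 was its highest mean and day 18 its lowest of the 4. HS3ST5 read 4.96, 17.1, 54.3 and 55.02 CPM before 16.8 CPM at day 42, and CENPF read 13.3, 13.01, 6.59 and 4.75 CPM before 26.5 CPM at day 42. By a test of the difference between steps within 1 model, 2672 genes (12.6%) changed differently from day 12 to day 18 than from day 18 to day 24, and 5170 genes (24.4%) changed differently than from day 6 to day 12.

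**Figure D5:**
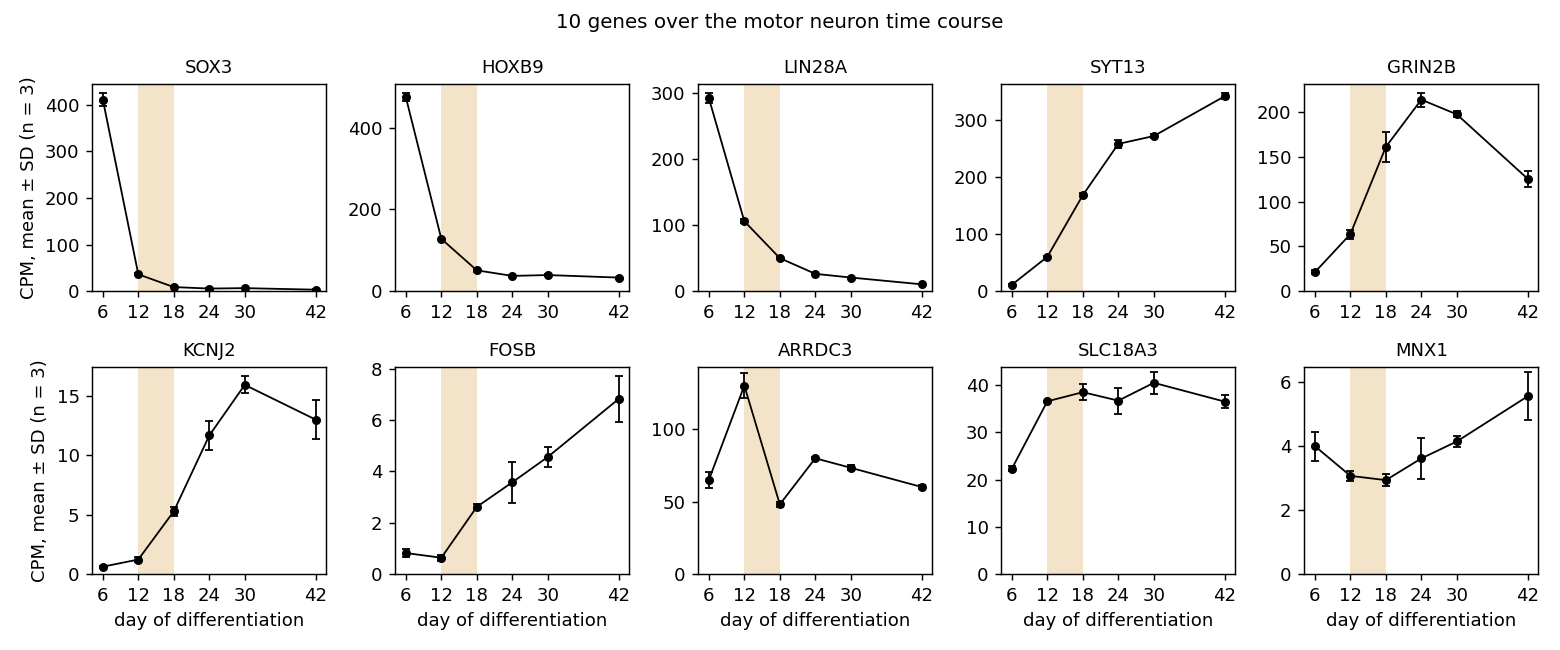
Mean CPM ± SD (n = 3 libraries a day) of 10 genes at days 6, 12, 18, 24, 30 and 42 of motor neuron differentiation, with the interval from day 12 to day 18 shaded and each y axis starting at 0. SOX3, HOXB9 and LIN28A fall mostly before day 12, SYT13, GRIN2B and KCNJ2 rise through the shaded interval, ARRDC3 drops within it, and SLC18A3 and MNX1 stay level across it.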

How the data were processed

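The 6 libraries were polyadenylated RNA-seq of H9-derived motor neuron cultures, 3 at day 12 and 3 at day 18. The authors used fastp for trimming and HISAT2 2.1.0 for alignment (build hg38), and deposited raw counts per gene made by featureCounts 1.5.3. The GENCODE release and the strand setting are not given in the sources used here, so antisense and overlapping genes cannot be told apart. Symbols and coordinates came from GENCODE v44, which matched 99.44% of the gene IDs.

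Groups came from the labels. The deposited counts were scaled by TMM and tested with edgeR 4.0.16 (R 4.3.3), by glmQLFit and glmQLFTest. The fit held 21 libraries of 7 groups (hSCNPCs at passage 10 and the motor neuron days). Benjamini-Hochberg adjustment ran over the 21175 genes that passed filterByExpr, with a threshold of 0.05. Total counts were 14142238 to 21387901 a library. Tested on simulated data, the fit called 77.6% of genes changed 1.5-fold, 85.1% changed 2-fold and 97% changed 4-fold, with 12 false calls among 19735 unchanged genes. The changes were placed in only 67, 67 and 66 genes, all above 1 CPM, and other genes had equal means in all groups. The real groups differed in many more genes, so these rates need not hold for the real comparison. Alternatives were other scalings and filters, fewer libraries, a replicate block, DESeq2 1.42.0, a test against 1.5-fold and leaving out each library. The comparison, gene lists and tests were chosen with earlier results of these data known. Named genes were the 12 largest called changes in each direction without overlap and at 5 CPM or more in every library of the higher day, genes the study discusses, and up to 3 called genes a direction and 2 not called per list; other names are marked as chosen later. Some genes that this rule picks are not reported here. FLT1 was also chosen after its values were seen.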

Additional observations from a re-analysis of the deposited data

Results flagged for a closer look

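A pair of results were marked because the change between days 12 and 18 differed from that of a neighbouring step by a test of the difference itself. Against the step from day 18 to day 24, 2672 genes differed by edgeR's quasi-likelihood test, and against the step from day 6 to day 12, 5170 genes differed. Each pair of steps shares 3 libraries, at day 18 or at day 12, so a high or low value there moves both steps in opposite directions, and its part in these counts was not tested. The counts were 2387 and 4693 with DESeq2.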

How the results depend on the processing

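The 2260 genes higher and 2375 lower at day 18 stayed within 1.5 times under other scalings, filters, sets of libraries and DESeq2 (2156 and 2050). Against a 1.5-fold threshold (edgeR glmTreat) 139 genes were higher and 72 lower, since that test asks for a larger change. Without 1 library, 1836 to 2118 were higher and 1751 to 2088 lower. No gene called in both the reported fit and an alternative changed sign. With the replicate number as a block 2300 were higher and 2434 lower, and 8 p53 and apoptosis genes were lower against 5; same-numbered libraries correlated by only 0.016 to 0.04 in their deviations from the day means, so the numbers were not taken as pairing, although each D18 library correlated best with its own number. Genes under 1 CPM rest on few counts, and their missing calls say little. Mitosis genes lower, DNA replication genes lower and mitochondrially encoded genes higher had their smallest counts, 7, 7 and 1, without D12 replicate 2.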

Other observations

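Gene families looked at after the values were seen gave further description. Of 26 replication-dependent histone genes 13 were lower and none higher (median log2 fold change -0.73), and their summed level was 200.5 to 236.7 CPM at day 12 and 122.2 to 128.7 CPM at day 18. These genes have near-identical copies, so single members are uncertain. The libraries were of polyadenylated RNA, and the counts of these genes were not tested as a measure of DNA synthesis. Of 51 clustered protocadherins, cell surface proteins that give neurons individual identities, 18 were lower and 1 was higher (median -0.26). Among 436 zinc finger genes named ZNF, 38 were higher (8.72%) and 58 lower (13.3%), near the 10.7% and 11.2% of all genes, and among 23 small nucleolar RNA host genes 4 were higher and 2 lower.

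Protein-coding genes of the longest genomic span, the top 1478 of 14781, were called higher in 25.6% and lower in 15.2% of cases, and the 1480 of the shortest span in 10.1% and 13.3%. In the 8 groups of intermediate span 11.8% to 16.2% were higher and 12.4% to 15.6% lower, and over all protein-coding genes 13.9% were higher and 13.9% lower.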
